A study of Mus musculus with 17 samples.

Results

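The comparison described here is an interaction: the change from healthy thymic DN2 cells to the leukemia derived from them, minus the change from healthy granulocyte-macrophage progenitors (GMP) to the leukemia derived from those. It uses 14 of the 17 arrays of the series, chosen by their labels: 5 arrays labelled as DN2-derived leukemia, 2 of healthy DN2, 5 labelled as GMP-derived leukemia and 2 of healthy GMP. The other 3 arrays are leukemias derived from LSK cells, a stem and progenitor fraction of the marrow, and enter no test of the main results. A gene with an interaction above 0 changed more towards higher levels in the DN2 origin, and one with an interaction below 0 changed more towards higher levels in the GMP origin.

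All donors were wildtype C57/Bl6 mice, with the CD45.2 allele in the donors of the transformed cells. In the leukemia groups, progenitors transformed with Myc and Bcl2 had been injected into irradiated recipients (4.5 to 6 Gy) of 4 to 8 weeks, and leukemia was defined by donor blasts above 10% in blood and a marrow infiltration of 20%. The leukemia RNA came from splenocytes sorted as CD11b+ and Gr1+ and as CD3-, CD4- and CD8-, while the healthy RNA came from thymus (DN2) and bone marrow (GMP). Healthy cells carried no transgene on their labels, so transformation, transplantation and organ cannot be told apart in either change. No label says that the arrays of a group came from separate mice, so the p-values measure the spread between these samples.

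DN2 cells are early thymic T-cell progenitors that carry c-kit and CD25, receive Notch signals and have not yet lost every other lineage choice. GMP are marrow progenitors that give rise to neutrophils and monocytes through a fixed order of granule genes, primary granules first and secondary and tertiary granules later. Myc drives growth and division and can engage the p53 pathway, and Bcl2 blocks apoptosis, so the pair is a potent transforming combination in blood cells.

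Expression is given as log2 values of 1 probe set per gene, on which 1 unit is a doubling. The median of all values was 3.83, and levels near it are background, where a further fall cannot be measured. In bulk samples fewer cells of a type and less RNA per cell cannot be told apart. Each difference is on the log2 scale and carries the standard error (SE) of limma, fitted on all 14 arrays and 11452 genes. A gene was called at a Benjamini-Hochberg adjusted p under 0.05.

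The labels were checked against markers first. Itgam, which encodes CD11b, was 7.17, 3.47, 7.38, 3.24 and 3.42 in DN2-labelled leukemia, against 3.71 and 3.97 in healthy DN2. In the other origin it was 9.23, 8.15, 9.88, 8.06 and 9.95 in GMP-labelled leukemia, against 5.21 and 4.67 in healthy GMP. Cd3e, a CD3 chain whose protein the sort excluded, was 8.47, 7.79, 8.20, 8.56 and 9.06 in DN2-labelled leukemia, against 5.56 and 5.48 in healthy DN2, and ranged over 5.05 to 5.24 in the GMP-labelled arrays. Cd3d, another CD3 chain, ranged over 12.17 to 12.55 in DN2-labelled leukemia, against 5.13 and 5.41 in healthy DN2, and over 6.95 to 8.53 in GMP-labelled leukemia, against 3.44 and 3.85 in healthy GMP. Thus 3 DN2-labelled arrays were at background for Itgam and all 5 had Cd3e and Cd3d above both healthy groups, which goes against the myeloid sort on their label. Cd3d was above healthy GMP in all 5 GMP-labelled arrays too, by 3.96 ± 0.35 (log2, SE). Cd4, which was not tested because it stayed under the background limit in every group, lay between 3.45 and 3.63 in the DN2-labelled arrays. Of the 2 CD8 chains, Cd8a differed by 0.12 ± 0.21 in the DN2 origin and Cd8b1 rose there by 3.22 ± 0.41. The interaction of Cd8b1 was 3.24 ± 0.58 (limma, adjusted p = 0.00209). The 4 neutrophil markers measured (Camp, Ngp, Ltf and S100a8) had a mean per array of 3.63 to 5.66 in DN2-labelled leukemia, against 3.53 and 3.83 in healthy DN2, and of 13.6 to 13.9 in GMP-labelled leukemia, against 8.06 and 8.37 in healthy GMP. The 5 NK-cell markers (Klrd1, Ncr1, Eomes, Gzma and Prf1) had a mean per array of 7.73 to 10.8 in DN2-labelled leukemia, against 4.75 and 4.76 in healthy DN2, and of 3.15 to 3.50 in GMP-labelled leukemia, against 3.34 and 3.35 in healthy GMP. Each healthy group was highest in the markers of its name. The 6 DN2 markers averaged 10.2 and 10.3 in healthy DN2, against 5.47 and 5.65 in healthy GMP. The 6 GMP markers averaged 11.0 in both healthy GMP arrays, against 6.997 and 7.041 in healthy DN2. Of these 6, 5 were above background in healthy DN2, among them Mpo (10.57 and 10.60) and Cd34 (9.005 and 9.078). Healthy DN2 thus also carried GMP markers, of which Kit is on both lists. The 2 monocyte markers measured (Cd14 and Csf1r) had a mean per array of 4.15 to 6.05 in DN2-labelled leukemia, against 3.98 and 4.26 in healthy DN2, and the 3 stromal markers (Cdh5, Col1a1 and Col3a1) were at background in all groups. The 2 erythroid markers measured (Hba-a1 and Klf1) had a mean per array of 5.93 to 8.70 in DN2-labelled leukemia, against 5.29 and 5.65 in healthy DN2, and of 7.08 to 8.88 in GMP-labelled leukemia, against 7.52 and 8.02 in healthy GMP. Hba-a1 differed by 3.72 ± 1.02 in the DN2 origin, and Klf1 ranged over 3.74 to 4.35 in DN2-labelled leukemia, against 3.51 and 4.04 in healthy DN2. What part cells of other types had in the results was not tested. Every direction below is therefore for arrays with the label given.

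Myc, Mycn and Bcl2 each moved the same way in both origins, and the arrays cannot separate a transgene from the cell's own gene. Myc fell by 4.40 ± 0.28 in the DN2 origin and by 4.46 ± 0.28 in the GMP origin (log2, SE, n = 5 and 2 per origin), and its interaction was 0.07 ± 0.39 (limma, adjusted p = 0.927). Mycn, a relative of Myc, rose by 7.51 ± 0.27 in the DN2 origin and by 8.28 ± 0.27 in the GMP origin, with an interaction of -0.77 ± 0.39 (limma, adjusted p = 0.215). Its 3 probe sets above background had interactions of -4.81 to -0.62, and with the mean of its probe sets the interaction was -2.07 and was called (limma, adjusted p = 5.2e-06). Bcl2 was 9.25, 9.94, 9.51, 9.79 and 9.90 in DN2-labelled leukemia, against 6.99 and 6.78 in healthy DN2. It was 11.53, 10.91, 10.32, 10.08 and 10.95 in GMP-labelled leukemia, against 6.51 and 5.89 in healthy GMP. It rose by 2.79 ± 0.34 in the DN2 origin and by 4.56 ± 0.34 in the GMP origin, and the interaction of -1.76 ± 0.48 was called (limma, adjusted p = 0.0249). A second Bcl2 probe set had an interaction of 1.51, the other way, and the call was lost with the mean of both probe sets (adjusted p = 0.821).

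The interaction was called for 1752 of 11452 genes (15.3%), of which 888 (7.75%) were above 0 and 864 (7.54%) below. At an unadjusted p under 0.05 there were 3271. Healthy groups have 2 arrays each, and the count was 1005 and 995 without healthy DN2 array 1 or 2 and 1126 and 1025 without healthy GMP array 1 or 2. It was 3276 without GMP-labelled arrays 2 and 4, which stand apart by high primary granule genes. The calls nearest the threshold were Cxcr5 and Fbxl2 inside (adjusted p = 0.0498 each) and Prkab1 and Il10ra outside (adjusted p = 0.0501 and 0.0506).

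**Figure D1:**
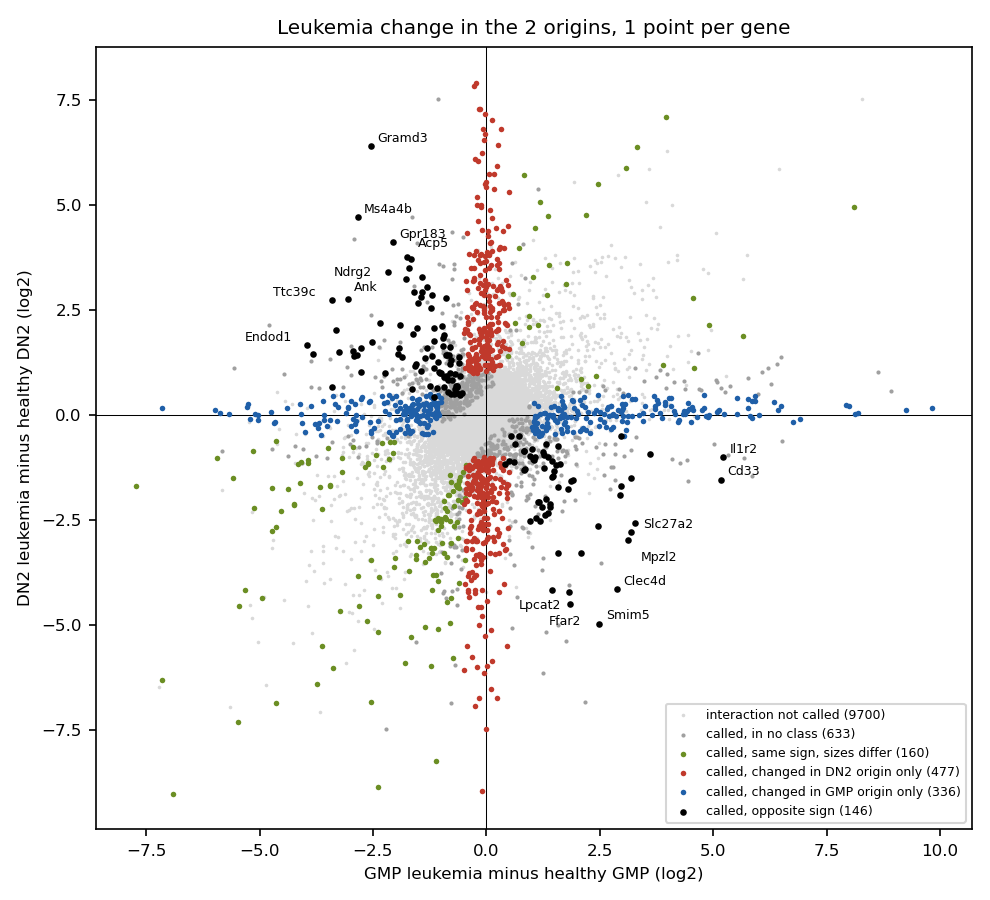
Change in the DN2 origin (y axis) against change in the GMP origin (x axis), each leukemia minus healthy on the log2 scale, with 1 point per gene for 11452 genes and colours for the kind of interaction. The 146 opposite-sign genes (black) occupy the upper left and lower right parts, and Gramd3 and Smim5 have the largest interaction of their class, 8.94 and -7.46.

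Called genes were sorted by what each origin did. In 146 genes (1.27%) both changes were called and had opposite signs: 86 (0.751%) rose in the DN2 origin and fell in the GMP origin, and 60 (0.524%) fell in the DN2 origin and rose in the GMP origin. Genes changed in 1 origin were those with a called change of at least 1 there and a change that was not called and under 0.5 in the other. The changes themselves were called for 26.0% of all genes in the DN2 origin and 24.5% in the GMP origin. There were 477 one-origin genes in the DN2 origin (4.17%; 238 up, 2.08%, and 239 down, 2.09%) and 336 in the GMP origin (2.93%; 175 up, 1.53%, and 161 down, 1.41%). A further 160 genes (1.40%) changed the same way by different amounts, and 633 (5.53%) met none of these rules. These classes were drawn from the same contrasts, so their sizes describe the data and test nothing further. Over all genes tested the median change was 0.0066 in the DN2 origin and -0.125 in the GMP origin, and the median interaction was 0.095.

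Over the genes that rose in the DN2 origin and fell in the GMP origin, the median level was 8.91 in DN2-labelled leukemia, against 7.31 in healthy DN2, and 5.06 in GMP-labelled leukemia, against 7.24 in healthy GMP. The median rise was 1.42, the median fall was -1.21, and both changes were at least 1 in size for 47 of the 86. Without healthy DN2 array 1 or 2 there were 43 such genes each time, without healthy GMP array 1 or 2 there were 37 and 36, and without GMP-labelled arrays 2 and 4 there were 198. The 8 leading genes were Gramd3, Ms4a4b, Gpr183, Ttc39c, Ank, Endod1, Ndrg2 and Acp5. They had the largest interaction among genes chosen for no overlap between leukemia and healthy arrays in either origin.

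Gramd3 was 11.27, 10.98, 10.50, 10.99 and 11.68 in DN2-labelled leukemia, against 4.92 and 4.45 in healthy DN2. It was 3.65, 6.10, 3.84, 5.43 and 4.07 in GMP-labelled leukemia, against 7.03 and 7.30 in healthy GMP. All 5 DN2-labelled arrays lay above every other array, and the GMP-labelled arrays lay below healthy GMP with arrays 2 and 4 closest to it. The change was 6.40 ± 0.57 in the DN2 origin and -2.54 ± 0.57 in the GMP origin (log2, SE, n = 5 and 2 each), an interaction of 8.94 ± 0.81 (limma, adjusted p = 7.74e-06). Ms4a4b, a membrane protein of mouse T cells, was 13.11, 12.99, 13.07, 13.03 and 12.08 in DN2-labelled leukemia, against 8.21 and 8.10 in healthy DN2. It was 2.97, 3.74, 2.96, 4.42 and 2.98 in GMP-labelled leukemia, against 6.69 and 5.81 in healthy GMP. Thus Ms4a4b was near the top of the scale in every DN2-labelled array and at background in 4 of 5 GMP-labelled arrays. Its interaction was 7.54 ± 0.58 (limma, adjusted p = 1.93e-06).

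Gpr183, a receptor for oxysterols that guides lymphocyte migration, was 8.98, 9.86, 8.35, 10.44 and 10.85 in DN2-labelled leukemia, against 6.01 and 5.14 in healthy DN2. It was 3.15, 3.50, 3.21, 3.60 and 3.34 in GMP-labelled leukemia, against 6.06 and 4.77 in healthy GMP. The healthy groups differed by 0.16 ± 0.68 for Gpr183 (DN2 minus GMP, log2, SE), and the leukemias lay on either side of them. Its interaction was 6.18 ± 0.80 (limma, adjusted p = 0.000175). Acp5, a tartrate-resistant acid phosphatase, showed the same order with tighter groups, at 10.18 to 11.18 in DN2-labelled leukemia, against 6.97 and 6.98 in healthy DN2, and 5.53 to 6.06 in GMP-labelled leukemia, against 7.52 and 7.70 in healthy GMP. Its interaction was 5.50 ± 0.36 (limma, adjusted p = 4.01e-07).

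For the other 4, the fall in the GMP origin was as large as or larger than the rise in the DN2 origin, except for Ndrg2. Endod1 was 8.37, 7.80, 8.61, 8.80 and 7.70 in DN2-labelled leukemia, against 6.61 and 6.56 in healthy DN2. It was 3.23, 3.38, 3.12, 3.40 and 3.51 in GMP-labelled leukemia, against 7.34 and 7.23 in healthy GMP. The rise of 1.67 ± 0.26 was the smaller part of the interaction of 5.63 ± 0.37 (limma, adjusted p = 4.41e-07), and all GMP-labelled arrays were at background. Ank, a pyrophosphate transporter, changed by 2.75 ± 0.23 in the DN2 origin and -3.06 ± 0.23 in the GMP origin, with 8.48 to 8.82 in DN2-labelled leukemia, against 5.97 and 5.87 in healthy DN2. Ttc39c changed by 2.73 ± 0.48 in the DN2 origin and -3.41 ± 0.48 in the GMP origin. Ndrg2 was at background in healthy DN2, with 3.36 and 3.32, and at 6.12 to 7.22 in the DN2-labelled arrays, with changes of 3.40 ± 0.31 in the DN2 origin and -2.18 ± 0.31 in the GMP origin. The interaction of these 3 genes ran from 5.57 for Ndrg2 to 6.14 for Ttc39c. Some of these genes have several probe sets above background, and their sizes differed: 0.90 to 6.14 over 3 for Ttc39c, 1.32 to 5.63 over 5 for Endod1 and 1.76 to 7.54 over 2 for Ms4a4b. With the mean of all probe sets the interaction was 2.87 for Ttc39c, 2.70 for Endod1 and 4.65 for Ms4a4b, each still called.

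**Figure D2:**
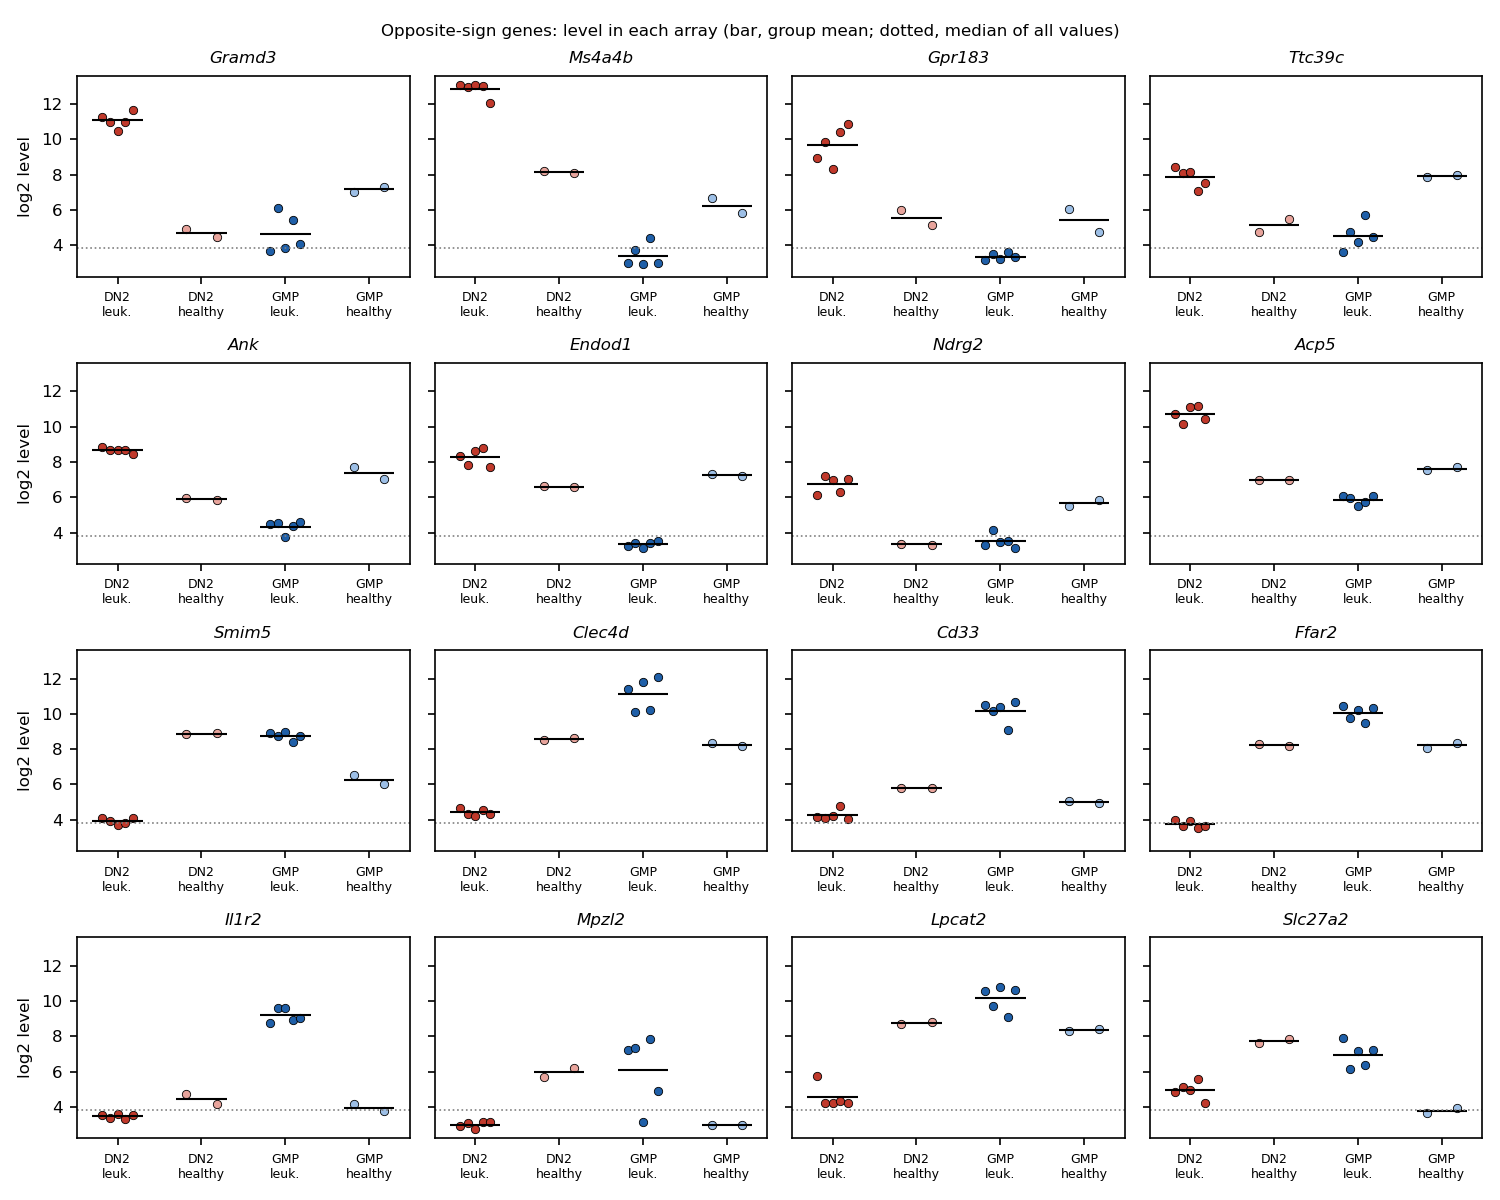
Log2 level (y axis) in each array of the 16 leading opposite-sign genes, which were chosen for no overlap between leukemia and healthy arrays. Groups lie along the x axis, with 1 point per array, a bar at the group mean and a dotted line at the median of all values. In the upper 2 lines of panels the DN2-labelled arrays lie above healthy DN2 and the GMP-labelled arrays below healthy GMP, and in the lower 2 lines the order is turned round, with Mpzl2 near 3 in GMP-labelled array 3.

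Over the genes that fell in the DN2 origin and rose in the GMP origin, the median level was 5.20 in DN2-labelled leukemia, against 7.47 in healthy DN2, and 9.12 in GMP-labelled leukemia, against 7.36 in healthy GMP. The median fall was -1.49 and the median rise 1.41, and both changes were at least 1 in size for 39 of the 60. There were 29 and 31 such genes without healthy DN2 array 1 or 2, 22 and 23 without healthy GMP array 1 or 2, 93 without GMP-labelled array 4, 150 without GMP-labelled arrays 2 and 4, and 39 with the LSK arrays in the fit. By the same rule of no overlap, the leading genes were Smim5, Clec4d, Cd33, Ffar2, Il1r2, Mpzl2, Lpcat2 and Slc27a2. Among them are 4 receptors known from myeloid cells (Clec4d, Cd33, Ffar2 and Il1r2).

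Smim5, a small integral membrane protein, was 4.09, 3.93, 3.73, 3.81 and 4.08 in DN2-labelled leukemia, against 8.84 and 8.94 in healthy DN2. It was 8.95, 8.78, 8.997, 8.41 and 8.73 in GMP-labelled leukemia, against 6.53 and 6.04 in healthy GMP. The level in the GMP-labelled arrays was thus that of healthy DN2, while the DN2-labelled arrays were at background. The changes were -4.97 ± 0.19 in the DN2 origin and 2.49 ± 0.19 in the GMP origin, and the interaction was -7.46 ± 0.27 (limma, adjusted p = 1.6e-09). Clec4d, a C-type lectin receptor for microbial glycolipids, was 4.67, 4.34, 4.20, 4.56 and 4.32 in DN2-labelled leukemia, against 8.50 and 8.63 in healthy DN2. It was 11.43, 10.11, 11.81, 10.20 and 12.10 in GMP-labelled leukemia, against 8.35 and 8.16 in healthy GMP. The healthy groups differed by 0.31 ± 0.55 for Clec4d (DN2 minus GMP, log2, SE), and the leukemias lay on either side of them, with an interaction of -7.02 ± 0.65 (limma, adjusted p = 9.77e-06).

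Cd33, a sialic-acid-binding lectin of myeloid cells, was 4.15, 4.09, 4.23, 4.76 and 4.02 in DN2-labelled leukemia, against 5.79 and 5.78 in healthy DN2. It was 10.52, 10.20, 10.42, 9.12 and 10.71 in GMP-labelled leukemia, against 5.09 and 4.97 in healthy GMP. Most of its interaction of -6.71 ± 0.49 (limma, adjusted p = 9.79e-07) lay in the GMP origin, where it rose by 5.17 ± 0.34, against -1.54 ± 0.34 in the DN2 origin. Il1r2, the decoy receptor for interleukin-1, had the same shape: it was 8.79 to 9.60 in GMP-labelled leukemia, against 4.17 and 3.76 in healthy GMP, and 3.30 to 3.60 in DN2-labelled leukemia, against 4.76 and 4.18 in healthy DN2. Ffar2, a receptor for short-chain fatty acids, had most of its change in the DN2 origin. It was 3.97, 3.65, 3.95, 3.54 and 3.63 in DN2-labelled leukemia, against 8.32 and 8.17 in healthy DN2. It was 10.44, 9.77, 10.24, 9.46 and 10.34 in GMP-labelled leukemia, against 8.10 and 8.34 in healthy GMP. Its interaction was -6.33 ± 0.35 (limma, adjusted p = 7.84e-08).

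The other 3 leading genes of this kind act in lipids or adhesion. Lpcat2, an acyltransferase of platelet-activating factor synthesis, changed by -4.23 ± 0.49 in the DN2 origin and 1.82 ± 0.49 in the GMP origin, and Slc27a2, a fatty acid transporter, by -2.79 ± 0.43 in the DN2 origin and 3.18 ± 0.43 in the GMP origin. Mpzl2, an adhesion protein of thymus and epithelium, was 2.92, 3.08, 2.74, 3.12 and 3.13 in DN2-labelled leukemia, against 5.72 and 6.23 in healthy DN2. It was 7.23, 7.34, 3.14, 7.87 and 4.94 in GMP-labelled leukemia, against 3.000 and 2.97 in healthy GMP. Among the GMP-labelled arrays, array 3 was at the healthy level and array 5 between, and the interaction of -6.09 ± 1.36 (limma, adjusted p = 0.00872) missed the threshold without healthy DN2 array 2 (adjusted p = 0.0501). Both probe sets of Lpcat2 above background were below 0, at -6.04 and -0.94. With the mean of all probe sets the interaction was -3.49 for Lpcat2 and -3.99 for Mpzl2, each still called.

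Promoters of 2 of these genes hold the letters CACGTG, the E-box that Myc and its partners can bind and its own reverse complement, and they are shown because the labels name Myc as a transforming gene. The labels do not say which member of the Myc family was introduced. The RefSeq promoter table (assembly GRCm38.p6, 250 bases before to 50 after each gene's start) held 49 of the 60 genes that fell in the DN2 origin and rose in the GMP origin, and 7 of these promoters (14.3%) held CACGTG. It was in 2 of 67 promoters (2.99%) of the genes of the other opposite class, in 10.3% of the 9309 promoters of tested genes and in 7.24% of all 27025. In the one-origin classes it was in 2.67% (DN2 up), 4.71% (DN2 down), 7.43% (GMP up) and 7.75% (GMP down). The 250 bases before the start of Ffar2 (chr7:30823776-30824025, minus strand) and of Il1r2 (chr1:40085843-40086092, plus strand) follow, 5′ to 3′ on the gene's strand, with CACGTG in capitals.
Ffar2: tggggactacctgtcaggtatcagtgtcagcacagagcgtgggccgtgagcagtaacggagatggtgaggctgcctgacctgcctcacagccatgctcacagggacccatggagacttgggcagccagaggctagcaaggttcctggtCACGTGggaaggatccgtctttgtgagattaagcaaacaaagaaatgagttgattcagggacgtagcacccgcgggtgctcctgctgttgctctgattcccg
Il1r2: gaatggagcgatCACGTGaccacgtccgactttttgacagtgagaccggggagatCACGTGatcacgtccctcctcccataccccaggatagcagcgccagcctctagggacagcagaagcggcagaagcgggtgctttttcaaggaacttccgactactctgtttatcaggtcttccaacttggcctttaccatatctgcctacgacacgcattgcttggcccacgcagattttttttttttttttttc
CACGTG lies 102 bases before the start in Ffar2 and 238 and 195 bases before it in Il1r2. These matches are a description of the letters and of no binding. Besides CACGTG and the 2 motifs shown further on, 3 were searched on both strands: AGGTGTGA (T-box), TTGCGCAA (C/EBP) and TGTGGT (Runx). AGGTGTGA and TTGCGCAA were in 0 promoters of both opposite-sign classes, against 0.945% and 0.236% of tested genes, and TGTGGT was in 13.4% and 12.2% of the promoters of these classes, against 13% of tested genes.

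Genes that rose in the DN2 origin only had a median change of 2.33 there and of -0.03 in the GMP origin. Over both directions the one-origin count of 477 was 306 without healthy DN2 array 1 and 309 without healthy GMP array 2. In 96 of the 238 both GMP groups were at or under the background limit, and in 123 both were above it. The 5 leading genes were Cd2, Gzmk, Myl1, Klrb1c and Gimap4, of which 4 are genes of T and NK cells. Cd2, an adhesion receptor of T and NK cells, was 10.94, 10.90, 11.19, 10.90 and 11.45 in DN2-labelled leukemia, against 3.28 and 3.05 in healthy DN2. It was 3.28, 3.26, 3.29, 3.11 and 3.14 in GMP-labelled leukemia, against 3.39 and 3.49 in healthy GMP. Cd2 was therefore high in all 5 DN2-labelled arrays and at background in all others, with an interaction of 8.13 ± 0.23 (limma, adjusted p = 1.55e-10) and a 95% interval of -0.58 to 0.13 for its change in the GMP origin.

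Gzmk, a granzyme of cytotoxic lymphocytes, was 11.94, 10.97, 12.29, 12.15 and 12.06 in DN2-labelled leukemia, against 3.88 and 4.22 in healthy DN2. Klrb1c, the NK1.1 receptor, was 10.80, 10.68, 10.88, 10.65 and 9.86 in DN2-labelled leukemia, against 3.16 and 3.42 in healthy DN2. Gimap4, a GTPase of lymphocytes, ranged over 11.37 to 11.59 in DN2-labelled leukemia, against 4.15 and 4.52 in healthy DN2. All 3 had 4.52 or less in every array of the other 3 groups. Myl1, a myosin light chain of fast muscle fibres, shared the pattern, with 9.26 to 10.93 in DN2-labelled leukemia, against 2.95 and 2.74 in healthy DN2. The interactions of these 4 were 8.10 ± 0.41 for Gzmk, 7.46 ± 0.48 for Myl1, 7.44 ± 0.37 for Klrb1c and 7.18 ± 0.19 for Gimap4. Whether the probe sets of Klrb1c and Gimap4 also bind their close paralogs was not analysed here.

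Genes that fell in the DN2 origin only had a median change of -1.93 there and of -0.10 in the GMP origin. Both GMP groups were at or under the background limit for 76 of the 239, so no fall could have been measured for those, and both were above it for 149. The leading genes were Dntt, Il2ra, Erg, Ly6d and Arpp21. Dntt, the template-free DNA polymerase of antigen receptor joints, was 2.90, 3.14, 3.16, 3.36 and 3.27 in DN2-labelled leukemia, against 12.30 and 11.95 in healthy DN2. It was 3.15, 3.49, 3.36, 3.38 and 3.23 in GMP-labelled leukemia, against 3.66 and 3.19 in healthy GMP. Il2ra, which encodes CD25, was likewise lower, at 3.02 to 3.28 in DN2-labelled leukemia, against 10.57 and 10.68 in healthy DN2. For Dntt, Il2ra, Ly6d and Arpp21 all GMP arrays of both groups had 4.08 or less, so a fall of these genes could be measured in the DN2 origin alone. With the mean of all probe sets the interaction of Arpp21 was -3.04, against -6.58 with the probe set used, and stayed called.

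Erg, an Ets transcription factor of stem and progenitor cells, was the exception among the 5. It was 2.64, 2.94, 2.73, 2.45 and 2.62 in DN2-labelled leukemia, against 9.43 and 9.40 in healthy DN2. It was 8.15, 8.24, 8.97, 8.13 and 8.85 in GMP-labelled leukemia, against 8.35 and 8.10 in healthy GMP. Both GMP groups expressed Erg at a level close to healthy DN2, and only the DN2-labelled arrays of these 4 groups lacked it. Its change in the GMP origin was 0.24 ± 0.24 (95% interval -0.27 to 0.76), against -6.74 ± 0.24 in the DN2 origin, and the interaction was -6.98 ± 0.34 (limma, adjusted p = 2.42e-08). Nfe2, a transcription factor of myeloid and erythroid cells, showed a like pattern, with changes of -6.15 ± 0.46 in the DN2 origin and -0.04 ± 0.46 in the GMP origin.

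Genes that rose in the GMP origin only had a median change of 0.02 in the DN2 origin and 2.69 in the GMP origin. Both DN2 groups were at or under the background limit for 76 of the 175. The count over both directions was 200 and 199 of 336 without healthy DN2 array 1 or 2, 222 and 206 without healthy GMP array 1 or 2, 544 without GMP-labelled array 4 and 950 without GMP-labelled arrays 2 and 4. The leading 5 were Olfm4, Ltf, Mmp8, Cd177 and Ceacam10, and the first 4 are products of neutrophil granules or the neutrophil surface. Olfm4, olfactomedin 4, was 3.54, 3.17, 3.49, 3.36 and 4.35 in DN2-labelled leukemia, against 3.29 and 3.55 in healthy DN2. It was 13.20, 13.27, 13.27, 13.05 and 13.34 in GMP-labelled leukemia, against 3.45 and 3.36 in healthy GMP. With 9.83 ± 0.25 in the GMP origin against 0.16 ± 0.25 in the DN2 origin, its interaction of -9.66 ± 0.35 (limma, adjusted p = 1.62e-09) was the largest in size among the genes named here.

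Ltf, lactoferrin of secondary granules, was 13.50, 13.14, 13.54, 13.14 and 13.52 in GMP-labelled leukemia, against 4.34 and 3.92 in healthy GMP. Mmp8, neutrophil collagenase, was 12.21, 11.90, 13.22, 10.64 and 13.003 in GMP-labelled leukemia, against 4.31 and 3.71 in healthy GMP. Array 4 was the lowest of the GMP-labelled arrays for Mmp8, as it was for Cd177 (12.18, 11.73, 11.92, 10.47 and 11.78) and Ceacam10 (11.50, 10.30, 12.15, 9.998 and 12.02). In the DN2-labelled arrays Ltf was 3.60 to 4.80, against 4.02 and 3.87 in healthy DN2, and Mmp8, Cd177 and Ceacam10 had 3.61 or less. The change in the DN2 origin was at most 0.22 in these 4 genes, with 95% intervals of -0.51 to 0.74 for Ltf and -1.10 to 1.18 for Mmp8. Whether the Ceacam10 probe set also binds related Ceacam genes was not analysed here.

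The promoters of Olfm4 and Mmp8 are shown because both hold the letters GAGGAAGT, read on the other strand as ACTTCCTC, a strong form of the site of the myeloid factor PU.1. These letters, on either strand, were in 10 of the 148 promoters (6.76%) of genes that rose in the GMP origin only, in 3.35% of those of tested genes and in 3.28% of all. In the other one-origin classes they were in 4.28% (DN2 up), 1.57% (DN2 down) and 2.33% (GMP down). The opposite-sign classes held them in 0 of 67 and 0 of 49 promoters. TGTGGT (Runx) was in 21.6% of the GMP only up promoters, in 15.2% to 17.1% of the other one-origin classes and in 13% of tested genes. The 250 bases before the start of Olfm4 (chr14:80000052-80000301, plus strand) and Mmp8 (chr9:7558179-7558428, plus strand) are given from RefSeq, assembly GRCm38.p6, with the match in capitals.
Olfm4: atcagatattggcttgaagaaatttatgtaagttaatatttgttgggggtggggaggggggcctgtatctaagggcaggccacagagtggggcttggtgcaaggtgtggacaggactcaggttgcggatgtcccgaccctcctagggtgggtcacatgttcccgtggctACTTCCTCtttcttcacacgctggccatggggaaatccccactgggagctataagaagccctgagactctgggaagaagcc
Mmp8: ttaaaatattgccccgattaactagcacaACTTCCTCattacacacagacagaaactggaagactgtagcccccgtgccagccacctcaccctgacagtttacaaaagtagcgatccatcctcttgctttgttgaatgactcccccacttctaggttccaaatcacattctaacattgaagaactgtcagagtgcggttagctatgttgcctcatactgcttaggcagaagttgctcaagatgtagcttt
The match lies 81 bases before the start in Olfm4 and 221 bases before it in Mmp8. Spi1, which encodes PU.1, was 6.56, 3.72, 3.97, 3.69 and 4.66 in DN2-labelled leukemia, against 6.74 and 6.64 in healthy DN2. It was 9.95, 9.32, 9.71, 9.06 and 9.72 in GMP-labelled leukemia, against 8.55 and 8.41 in healthy GMP. Spi1 changed by -2.17 ± 0.60 in the DN2 origin, which was called (limma, adjusted p = 0.0187). Its change of 1.07 ± 0.60 in the GMP origin was not called (limma, adjusted p = 0.213). Its interaction was -3.24 ± 0.85 (limma, adjusted p = 0.0217), which missed the threshold without any of the 4 healthy arrays in turn, or without DN2-labelled arrays 2, 4 and 5 (highest adjusted p = 0.0896).

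Genes that fell in the GMP origin only had a median change of 0.05 in the DN2 origin and of -1.75 in the GMP origin, and both DN2 groups were above the background limit for 113 of the 161. The leading 5 were Prg2, Epx, Lgals1, Prg3 and Dpysl2. Prg2, Epx and Prg3 encode eosinophil granule proteins. Prg2 was 3.45, 3.82, 4.85, 3.99 and 6.81 in GMP-labelled leukemia, against 11.89 and 11.56 in healthy GMP, with GMP-labelled arrays 3 and 5 the highest of that leukemia, and it lay between 3.44 and 3.73 in all 7 DN2 arrays of both groups. Epx was 3.42, 3.48, 3.67, 3.60 and 3.90 in GMP-labelled leukemia, against 9.35 and 9.86 in healthy GMP, and Prg3 ranged over 2.81 to 3.27 in GMP-labelled leukemia, against 8.47 and 9.08 in healthy GMP. These 3 genes were at background in both DN2 groups, where a fall could not be measured. The calls of Epx and Prg3 were lost with the LSK arrays in the fit (adjusted p = 0.0709 and 0.0548).

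Lgals1 and Dpysl2 were expressed in both DN2 groups. Dpysl2, a cytosolic protein that binds tubulin, was 11.50, 11.27, 11.54, 11.52 and 11.11 in DN2-labelled leukemia, against 11.17 and 11.11 in healthy DN2. It was 3.77, 3.45, 4.23, 3.77 and 3.61 in GMP-labelled leukemia, against 9.16 and 8.90 in healthy GMP. Dpysl2 thus stayed high in one leukemia and was at background in the other, with an interaction of 5.51 ± 0.28 (limma, adjusted p = 3.82e-08), or 2.66 with the mean of all probe sets. Lgals1, galectin-1, was 3.60, 7.65, 6.18, 8.75 and 6.37 in GMP-labelled leukemia, against 12.27 and 12.49 in healthy GMP. The GMP-labelled arrays spread widely for Lgals1, its interaction was 5.92 ± 1.43 (limma, adjusted p = 0.0136), and the call was lost without any of the 4 healthy arrays in turn (highest adjusted p = 0.0643).

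**Figure D3:**
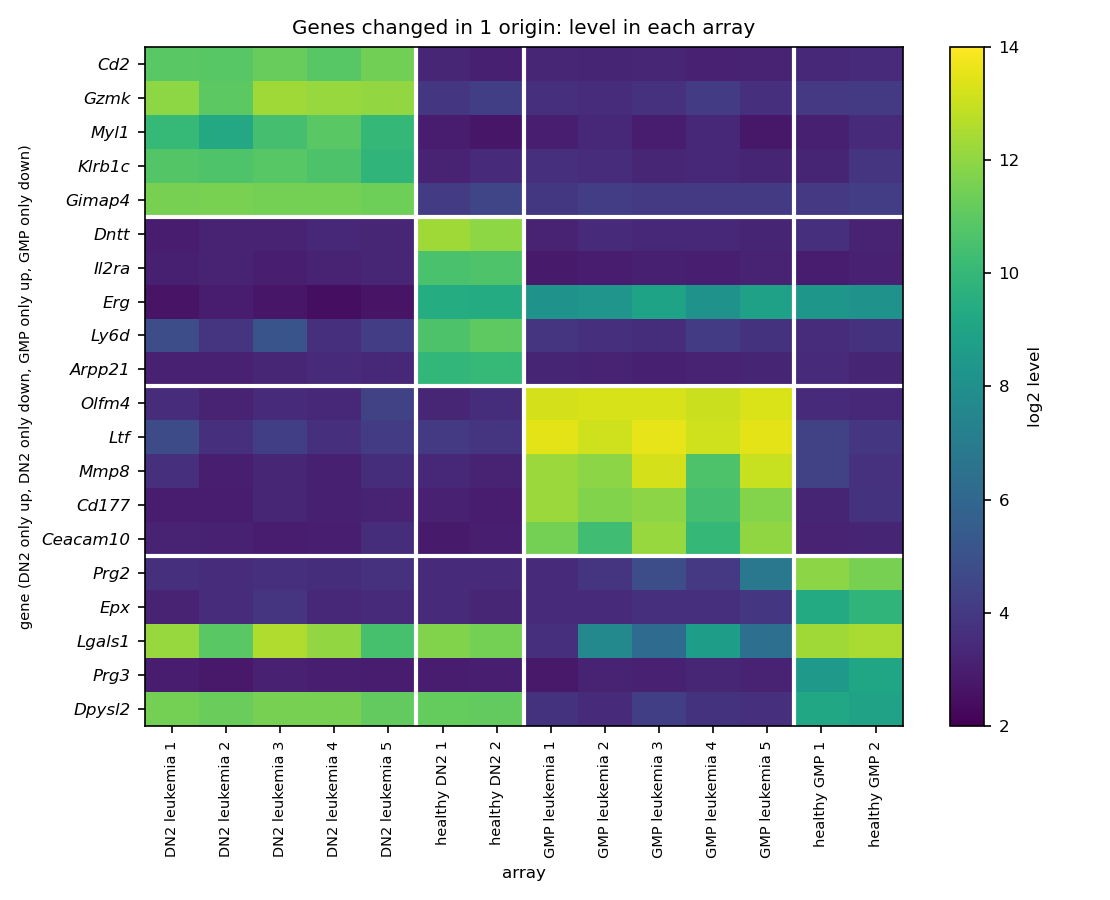
Log2 level (colour) of the 5 leading genes of each one-origin class (y axis) in each of the 14 arrays (x axis), with white lines between groups and between classes. Erg and Dpysl2 stand out as genes that both leukemias could show, since they are high in all groups but the DN2-labelled arrays (Erg) or the GMP-labelled arrays (Dpysl2), while most others are at background in 3 of the 4 groups.

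Genes were also described by 31 lists of known function, which held 360 of the genes tested. The lists held 2 of the opposite-sign genes, which were 1.27% of all genes tested: Cdkn1a of the p53 pathway and Ifngr1 of the cytokine receptors. Ifngr1, a chain of the interferon-gamma receptor, changed by 1.76 ± 0.34 in the DN2 origin and -1.15 ± 0.34 in the GMP origin, with an interaction of 2.91 ± 0.48 (limma, adjusted p = 0.00114).

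NK cell and cytotoxic genes had the highest median interaction, 5.14 over 18 genes tested. The interaction was called for 11, all above 0, against 7.75% of all genes. In the DN2 origin 13 were called higher (10.9% of all genes) and in the GMP origin 1, Id2, was called higher and 1 lower (9.74% and 14.8% of all genes). Eomes, a T-box factor of NK and memory T cells, was 10.40, 10.16, 10.42, 11.19 and 10.53 in DN2-labelled leukemia, against 3.27 and 3.78 in healthy DN2. It was at most 3.52 in GMP-labelled leukemia, against at most 3.32 in healthy GMP. Klrk1, which encodes the activating receptor NKG2D, was 11.85, 9.10, 12.09, 10.70 and 11.53 in DN2-labelled leukemia, against 3.51 and 3.55 in healthy DN2. Over the list the mean level per array was 10.84, 8.49, 10.83, 9.47 and 9.39 in DN2-labelled leukemia, against 5.66 and 5.60 in healthy DN2, so arrays 1 and 3, those with Itgam, were the highest. Called members numbered 14 without arrays 2, 4 and 5 (1562 of 11459 genes) and 13 without arrays 1 and 3 (1896 of 11463 genes).

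T-cell receptor genes followed the same direction, and the T-lineage genes of the thymus went the other way. Of 16 T-cell receptor complex and signalling genes, the interaction was called above 0 for 10 and below 0 for 1, against 7.75% and 7.54% of all genes, with a median of 2.22. Zap70, the kinase that binds the activated receptor, was 9.19, 9.28, 9.46, 9.37 and 9.59 in DN2-labelled leukemia, against 5.001 and 4.51 in healthy DN2. Sh2d1a, an adaptor of T and NK cells, and Txk, a Tec-family kinase, had interactions of 5.67 ± 0.25 for Sh2d1a and 5.55 ± 0.41 for Txk. Of 12 genes for Notch targets and transcription factors of the T lineage, the interaction was called above 0 for 2 and below 0 for 6, against 7.75% and 7.54% of all genes, with a median of -1.86. Hes1, a repressor induced by Notch, was 4.67, 4.26, 4.34, 4.70 and 4.59 in DN2-labelled leukemia, against 10.20 and 9.17 in healthy DN2. It was 4.09, 4.36, 5.68, 5.56 and 6.46 in GMP-labelled leukemia, against 3.96 and 3.88 in healthy GMP. Hes1 fell by 5.18 ± 0.52 in the DN2 origin, while the difference in the GMP origin, with GMP-labelled arrays 3, 4 and 5 at 5.56 to 6.46, was 1.31 ± 0.52 and was not called (limma, adjusted p = 0.0816). Notch1 had changes of -3.15 ± 0.49 in the DN2 origin and 1.01 ± 0.49 in the GMP origin, of which the first was called. Notch3, another Notch receptor, had an interaction of -3.16 ± 0.23, or -1.89 with the mean of all probe sets.

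V(D)J recombination and end-joining genes, which build antigen receptors, were called below 0 for 5 of 9, against 7.54% of all genes, with a median interaction of -1.38. Rag1 was 3.64, 2.99, 3.65, 2.98 and 2.92 in DN2-labelled leukemia, against 7.51 and 7.61 in healthy DN2. Rag2, its partner in the recombinase, was 3.12, 3.28, 3.28, 3.46 and 3.25 in DN2-labelled leukemia, against 7.08 and 7.50 in healthy DN2. Both were at background in the GMP-labelled arrays. Lig4, the DNA ligase of end joining, is used in all cells, and it was 5.65, 5.72, 6.48, 5.91 and 4.61 in DN2-labelled leukemia, against 8.42 and 8.29 in healthy DN2. It was 5.87, 5.87, 6.46, 5.43 and 6.48 in GMP-labelled leukemia, against 4.999 and 5.48 in healthy GMP. Its interaction was -3.46 ± 0.58 (limma, adjusted p = 0.0012).

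Late neutrophil genes had the lowest median interaction, -4.67 over 20 genes, with 13 called below 0 (7.54% of all genes). In the GMP origin 15 were called higher (9.74% of all genes), and in the DN2 origin 1 was (10.9% of all genes). The list's mean per array was 5.07, 3.71, 4.07, 3.97 and 4.75 in DN2-labelled leukemia, against 3.67 and 3.77 in healthy DN2, and 11.98, 11.49, 12.31, 11.27 and 12.12 in GMP-labelled leukemia, against 7.11 and 7.22 in healthy GMP. Called members numbered 10 without DN2-labelled arrays 2, 4 and 5 (1562 of 11459 genes). Of 8 primary granule genes, which come earlier in neutrophil development, the interaction was called for 1 (15.3% of all genes), with a median of -0.28. Their mean was 10.55, 12.04, 9.98, 12.10 and 10.22 in GMP-labelled leukemia, against 12.44 and 12.46 in healthy GMP, so arrays 2 and 4 stood apart. Mpo, myeloperoxidase, was 7.71, 13.34, 7.95, 13.36 and 8.88 in GMP-labelled leukemia, against 13.88 and 13.95 in healthy GMP. It fell in the DN2 origin, where all 5 arrays of DN2-labelled leukemia were at background, against 10.60 and 10.57 in healthy DN2, and its interaction of -3.40 ± 1.93 was not called (limma, adjusted p = 0.27).

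**Figure D4:**
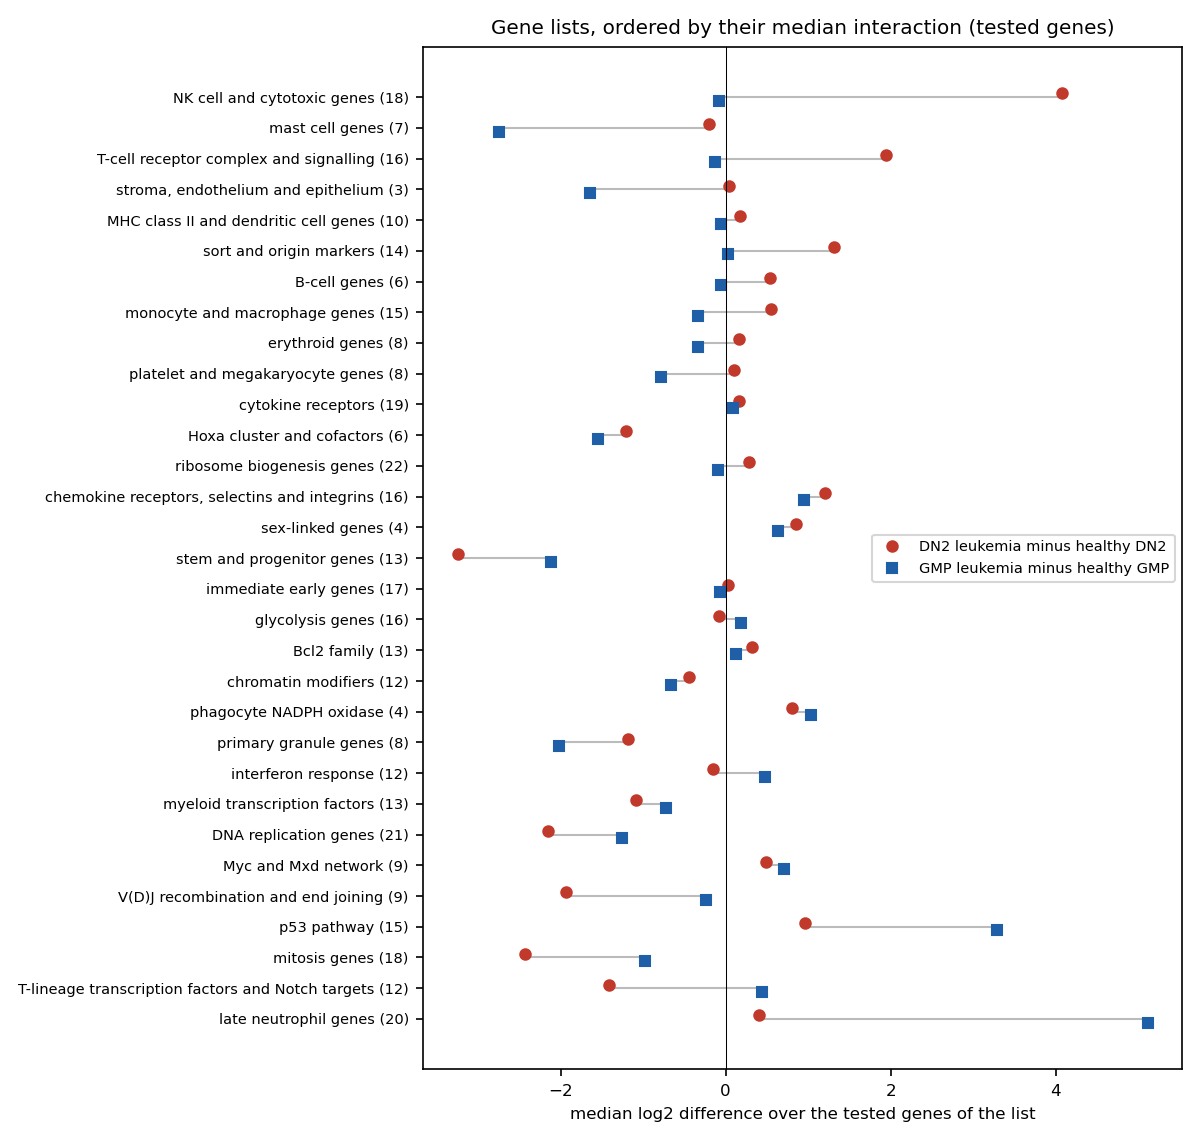
Median log2 difference (x axis) over the tested genes of each list (y axis, number of genes in brackets), for the DN2 origin (red circles) and the GMP origin (blue squares), ordered by median interaction. NK cell and cytotoxic genes at the top have medians of 4.07 (DN2) and -0.08 (GMP), and late neutrophil genes at the bottom have 0.41 (DN2) and 5.11 (GMP).

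The p53 pathway rose more widely in the GMP origin. Of 15 genes, 6 were called higher and 2 lower in the DN2 origin, and 12 were called higher in the GMP origin, against 10.9%, 15.0% and 9.74% of all genes. The interaction was called for 7, all below 0 (7.54% of all genes), with a median of -1.51. The list's mean per array was 7.38, 6.94, 7.16, 7.04 and 7.57 in DN2-labelled leukemia, against 6.23 and 6.11 in healthy DN2, and 8.93, 8.43, 8.996, 8.40 and 9.54 in GMP-labelled leukemia, against 5.98 and 5.83 in healthy GMP. Every GMP-labelled array lay above every DN2-labelled array. The called members numbered 6 without DN2-labelled arrays 2, 4 and 5, 7 without arrays 1 and 3, and 9 without GMP-labelled arrays 2 and 4. Over all genes the same fits called 1562 of 11459, 1896 of 11463 and 3276 of 11460.

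Cdkn1a, the p21 inhibitor of cyclin-dependent kinases and the best known p53 target, was 7.77, 5.71, 7.02, 5.38 and 7.51 in DN2-labelled leukemia, against 9.46 and 9.06 in healthy DN2. It was 11.03, 10.46, 11.22, 11.25 and 12.002 in GMP-labelled leukemia, against 8.27 and 7.54 in healthy GMP. It is the opposite-sign member of the list: every DN2-labelled array lay below healthy DN2 and every GMP-labelled array above healthy GMP. Its changes were -2.58 ± 0.60 in the DN2 origin and 3.28 ± 0.60 in the GMP origin, with an interaction of -5.87 ± 0.84 (limma, adjusted p = 0.0004) that was called under all 26 alternatives. Trp53inp1, a p53-induced nuclear protein, was 11.20, 11.46, 11.33, 11.23 and 12.17 in DN2-labelled leukemia, against 10.59 and 10.31 in healthy DN2. It was 12.49, 11.53, 12.23, 10.89 and 12.85 in GMP-labelled leukemia, against 6.30 and 5.56 in healthy GMP. The healthy groups differed by 4.52 ± 0.54 and the leukemias by -0.52 ± 0.34 (DN2 minus GMP, log2, SE), and the interaction was -5.04 ± 0.64 (limma, adjusted p = 0.000141).

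Phlda3, an Akt repressor, was 5.75, 3.89, 4.95, 3.99 and 4.05 in DN2-labelled leukemia, against 4.32 and 4.16 in healthy DN2. It was 7.98, 7.77, 8.13, 7.09 and 9.01 in GMP-labelled leukemia, against 3.68 and 3.41 in healthy GMP. Perp, a membrane protein of p53-dependent apoptosis, rose in both origins, by 1.87 ± 0.54 in the DN2 origin and 5.65 ± 0.54 in the GMP origin. The interactions were -4.16 ± 0.73 for Phlda3 (limma, adjusted p = 0.00181) and -3.78 ± 0.76 for Perp (limma, adjusted p = 0.00447), and that of Perp was lost with the LSK arrays in the fit (adjusted p = 0.227). Of the apoptosis genes of this list, Bbc3 (Puma) changed by 2.98 ± 0.41 in the DN2 origin and 3.44 ± 0.41 in the GMP origin, and Pmaip1 (Noxa) by 2.53 ± 0.51 in the DN2 origin and 2.02 ± 0.51 in the GMP origin. Neither had a called interaction, and both were named after their values were seen.

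The promoter of Cdkn1a is shown because it is the most studied p53 target promoter, and it was chosen after its values were seen. The half-site of p53 was searched as its consensus, which is its own reverse complement, and was in 4 of the 10 p53 pathway promoters that RefSeq held (40%), in 6.62% of those of tested genes and in 8.37% of all. The 250 bases before the start (chr17:29090729-29090978, plus strand, assembly GRCm38.p6) hold 2 half-sites, in capitals.
Cdkn1a: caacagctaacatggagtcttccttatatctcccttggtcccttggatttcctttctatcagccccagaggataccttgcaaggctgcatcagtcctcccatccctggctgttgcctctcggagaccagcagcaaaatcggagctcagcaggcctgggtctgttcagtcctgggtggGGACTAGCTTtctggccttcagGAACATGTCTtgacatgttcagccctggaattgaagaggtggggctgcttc
They are GGACTAGCTT and GAACATGTCT, 73 and 51 bases before the start, and they do not overlap. Only full matches to the consensus are in capitals, so the bases directly after the second match, which come close to the consensus, stay in lower case. Positions are counted from the start of the RefSeq entry used, and other possible starts of Cdkn1a were not analysed here. A match says nothing of binding in these cells.

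**Figure D5:**
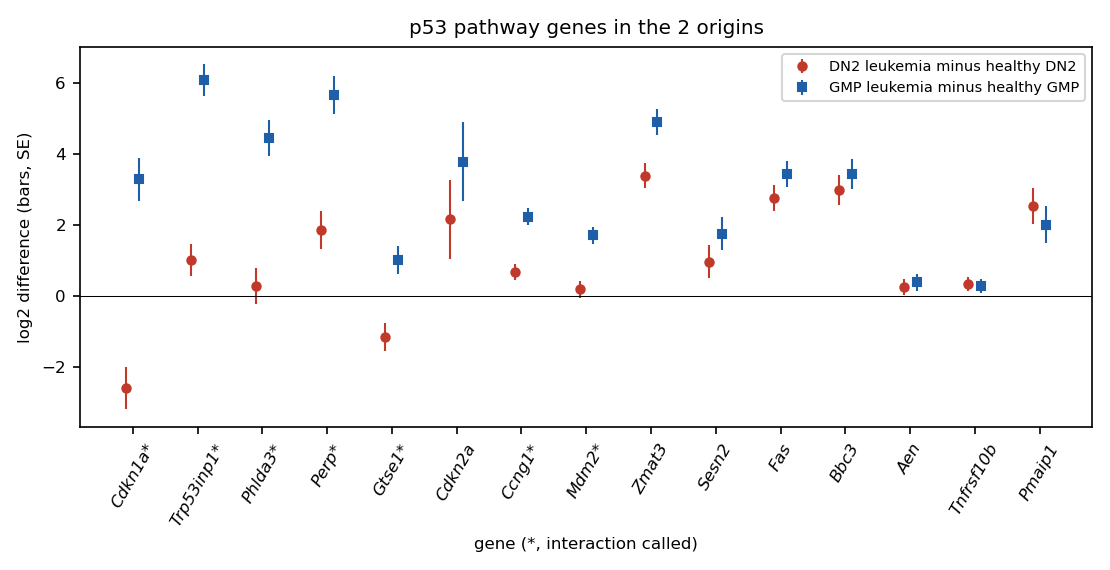
Log2 difference (y axis, with SE) of the 15 p53 pathway genes (x axis, ordered by interaction, asterisk where it was called) in the DN2 origin (red circles) and the GMP origin (blue squares). The GMP value lies above the DN2 value in 13 of the 15 genes, and Cdkn1a at the left has changes of -2.58 (DN2) and 3.28 (GMP).

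The Bcl2 family was called below 0 for 4 of 13 genes, against 7.54% of all genes, with a median of -0.03: Bcl2, Bmf, Bcl2l2 and Bcl2l1. Bmf, a pro-apoptotic member, had changes of 0.98 ± 0.60 in the DN2 origin and 3.99 ± 0.60 in the GMP origin. Bcl2l2 and Bcl2l1, which encode the protective Bcl-w and Bcl-x, were called lower in the DN2 origin, with changes of -2.30 ± 0.32 for Bcl2l2 and -1.10 ± 0.20 for Bcl2l1. Each of the 4 calls was lost under 4 to 6 of 26 alternatives, among them the mean of all probe sets for Bcl2, Bcl2l2 and Bcl2l1. With that mean the interaction of Bmf was -1.02, against -3.01 with the probe set used.

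Cell division genes differed in how many were called per origin, but the interaction itself was not called. All 18 mitosis genes were called lower in the DN2 origin (15.0% of all genes), with a median of -2.43, and 1 was in the GMP origin (14.8% of all genes), with a median of -0.97. The interaction was called for 0 of 18 with limma (15.3% of all genes). An unadjusted p under 0.05 was reached by 3, against 3271 of all 11452 genes. With array weights 9 were called, against 5183 of all 11452 genes. The list's mean per array was 7.06, 5.65, 8.68, 7.01 and 5.25 in DN2-labelled leukemia, against 9.22 and 9.20 in healthy DN2, and 8.23, 8.20, 8.95, 9.05 and 8.57 in GMP-labelled leukemia, against 9.50 and 9.55 in healthy GMP. DN2-labelled array 3 lay among the GMP-labelled arrays. Without DN2-labelled arrays 1 and 3 the interaction was called for 12 of 18, against 1896 of 11463 genes. It was called for 0 of 18 without DN2-labelled arrays 2, 4 and 5, against 1562 of 11459 genes. The number was also 0 without GMP-labelled arrays 2 and 4, against 3276 of 11460 genes. Mki67, a marker of cycling cells, was 9.29, 7.30, 10.60, 8.89 and 7.08 in DN2-labelled leukemia, against 11.12 and 11.06 in healthy DN2. Its interaction was -2.18 ± 1.08 (limma, adjusted p = 0.206). Of 21 DNA replication genes, 18 were called lower in the DN2 origin (15.0% of all genes), with a median of -2.15. Unlike for the mitosis genes, 11 were called lower in the GMP origin (14.8% of all genes), with a median of -1.26. The interaction was called for 0 of 21 with limma (15.3% of all genes). An unadjusted p under 0.05 was reached by 2, both below 0, against 3271 of all 11452 genes. Without DN2-labelled arrays 1 and 3 the interaction was called for 3 of 21. It was called for 0 of 21 without DN2-labelled arrays 2, 4 and 5, and for 0 without GMP-labelled arrays 2 and 4.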

How the data were processed

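Values were deposited by the authors as log2 expression per probe set of an Affymetrix mouse array, from 300 ng of RNA per array. The submitters' processing notes name RMA and affy, with versions not given in the sources used here. In all, the table holds 45141 probe sets, of which 104 are controls. Of the rest, 28898 had 1 gene symbol in the platform annotation, 551 had several and 15588 were not listed. Entrez identifiers of 28689 matched the RefSeq gene table (GRCm38.p6), used for current names. For each of 17097 genes the probe set of highest average over the 14 arrays was taken. The 11452 genes with at least 1 group mean over 3.83, the median of the table, were tested. Array medians were 3.80 to 3.86, values ran from 2.18 to 14.1, and the table holds no detection calls. The number of arrays limits the precision.

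A model with 1 mean per group was fitted with limma 3.58.1 (lmFit, eBayes) in R 4.3.3, with two-sided tests and Benjamini-Hochberg adjustment over all 11452 genes, and was tested on simulated arrays. The simulated arrays had the same spread in all groups, so that test does not cover the smaller spread of the healthy arrays. The members, the 31 lists and the rules were chosen with earlier results of these data known, so lists are described by counts and medians without a list test. Named genes were the transgenes and genes of the sort and origin, the 8 genes per opposite-sign class and 5 per one-origin class with the largest interaction whose leukemia and healthy arrays did not overlap, and up to 4 per list. Ly6g was among the sort genes and was not analysed here. Promoters were read from RefSeq (GRCm38.p6), 1 entry per gene. Alternatives were the LSK arrays in the fit, the filter, the variance model, array weights, quantile normalization, the mean of probe sets, a replicate block, Eif2s3y as a covariate, a minimum fold, other limits for an unchanged origin, and leaving out arrays.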

Additional observations from a re-analysis of the deposited data

Results flagged for a closer look

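Among the 2 leukemia groups of 43 named genes, 86 groups of 5 arrays were checked for a single array far from the others, and 7 held one, where chance gives about 1 in 20. In the DN2-labelled arrays, Ms4a4b was lowest in array 5 (12.08, the others 12.99 to 13.11), Klrb1c was lowest in array 5 (9.86, the others 10.65 to 10.88), Gzmk was lowest in array 2 (10.97), Cd33 was highest in array 4 (4.76) and Lpcat2 was highest in array 1 (5.77). In the GMP-labelled arrays, Ank was lowest in array 3 (3.72) and Cd177 was lowest in array 4 (10.47). None of these arrays reached the range of the healthy arrays of its origin, which the rule that chose these genes required.

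The change differed between the origins by the interaction term in 1752 genes, of which 86 rose in the DN2 origin and fell in the GMP origin and 60 did the reverse.

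The 3 LSK-labelled leukemia arrays were outside the main comparison, and no healthy LSK array was analysed here. Their mean was nearer the DN2-labelled than the GMP-labelled leukemia for 33 of the 86 and 17 of the 60 opposite-sign genes, for 42 of the 238 and 73 of the 239 genes that rose or fell in the DN2 origin only, and for 65 of the 175 and 57 of the 161 that rose or fell in the GMP origin only. Over all 11452 genes tested it was so for 4185 (36.5%), and over the 9700 with no called interaction for 3653 (37.7%). The arrays differed among themselves: Mycn was 12.82, 4.91 and 4.22 and Bcl2 was 11.30, 6.75 and 5.27 in LSK-labelled arrays 1, 2 and 3. Smim5 was 6.34, 8.34 and 9.11, Clec4d was 8.80, 11.79 and 11.74 and Ms4a4b was 8.51, 9.80 and 9.85, each between the 2 other leukemias or near the GMP-labelled one. Prg2 was 13.19, 6.35 and 4.41, with array 1 above healthy GMP.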

How the results depend on the processing

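No sign of a called gene turned under any alternative except for 2 of the 1752 under the mean of probe sets. Of 92 named genes with a called interaction, 71 were called under every alternative, and 21 lost the call under at least 1. Among all 152 named genes, 46 without a call in the main fit gained one under at least 1 alternative. Many named genes were picked for a large interaction, so these numbers do not describe called genes in general. Array weights raised the counts to 5183 genes, 468 up in DN2 and down in GMP, 297 the reverse and 916 in the GMP origin only; the median SD over genes was 0.27 in the DN2-labelled arrays, against 0.07 in healthy DN2, and 0.33 in the GMP-labelled arrays, against 0.11 in healthy GMP, and the weights use this. Without GMP-labelled arrays 2 and 4 these 4 counts were 3276, 198, 150 and 950. With all 17 arrays the second opposite class fell to 39. A limit of 0.25 on the unchanged origin left 304 (DN2) and 212 (GMP) one-origin genes. Leaving out 1 array gave 995 to 2190 called genes, 36 to 108 and 22 to 93 opposite-sign genes, and 306 to 518 (DN2) and 199 to 544 (GMP) one-origin genes, the lowest without a healthy array, when the lone healthy array is assumed to vary like the others. The other alternatives kept each count within 1.5 times. Among them, Eif2s3y as a covariate gave 1816 called genes. The 4 sex-linked genes tested (Xist, Kdm5d, Uty and Eif2s3y) had a mean of 7.68 in DN2-labelled array 2 and 7.24 in GMP-labelled array 2. In every other array of the main fit that mean lay between 5.35 and 5.60. Replicate numbers did not pair the arrays (correlations of same-numbered deviations -0.124 to 0.162); the replicate block gave 1736 called genes, 67 and 50 opposite-sign genes, and 471 and 345 one-origin genes. Levels near background limit what falls can be seen.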

Other observations

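Of 16 chemokine receptors, selectins and integrins, which place cells in tissues, the interaction was called above 0 for 4 and below 0 for 3, against 7.75% and 7.54% of all genes. Cxcr3, a receptor of activated T and NK cells, was 8.51, 8.15, 9.64, 9.24 and 9.36 in DN2-labelled leukemia, against 3.53 and 3.67 in healthy DN2. S1pr1, which leads lymphocytes out of tissues, was 9.06, 9.73, 7.95, 9.75 and 9.35 in DN2-labelled leukemia, against 4.70 and 4.63 in healthy DN2. Ccr9, which draws T progenitors to the thymus and gut, was 3.40, 2.95, 3.23, 2.84 and 3.38 in DN2-labelled leukemia, against 6.75 and 6.18 in healthy DN2, lower in all 5 leukemia arrays. In the GMP origin Ccr1, a receptor of neutrophils and monocytes, was 9.08, 7.57, 10.28, 6.76 and 9.56 in GMP-labelled leukemia, against 4.39 and 4.16 in healthy GMP. Interactions were 4.24 ± 0.69 for Cxcr3, 4.04 ± 0.57 for S1pr1, -3.14 ± 0.29 for Ccr9 and -4.36 ± 0.99 for Ccr1, all called by limma. The call of Ccr1 was lost without healthy GMP array 2 (adjusted p = 0.0511), and with the mean of all probe sets the interaction of Ccr9 was -1.31. Il2rb, the shared chain of the interleukin-2 and interleukin-15 receptors, was 9.27, 9.34, 9.78, 9.75 and 9.87 in DN2-labelled leukemia, against 3.66 and 3.71 in healthy DN2, while Il2ra fell in the same arrays.

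In the GMP origin 4 of 7 mast cell genes and 4 of 8 platelet and megakaryocyte genes were called lower, against 14.8% of all genes, and none of either list was called higher (9.74%). Ms4a2, a chain of the IgE receptor of mast cells and basophils, was 3.72, 3.40, 3.43, 4.19 and 3.66 in GMP-labelled leukemia, against 8.17 and 8.56 in healthy GMP, and Pf4, a platelet chemokine, was 3.36, 3.36, 3.43, 3.43 and 3.20 in GMP-labelled leukemia, against 9.08 and 8.20 in healthy GMP. Both were at background in every DN2 array, with interactions of 4.48 ± 0.29 for Ms4a2 and 5.47 ± 0.28 for Pf4. Members like Ms4a2 and Pf4 passed the background limit through healthy GMP alone. In the GMP origin they could therefore be called lower but not higher, and the counts above include them. Cpa3, a mast cell protease that both healthy progenitors expressed, was at 3.02 to 3.30 in all 10 leukemia arrays, against 12.22 and 12.17 in healthy DN2 and 10.04 and 10.11 in healthy GMP. Its interaction of -2.10 ± 0.18 (limma, adjusted p = 4.62e-06) was called although both leukemias were at background, and healthy DN2 held the higher level of the healthy groups.

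Among 16 glycolysis genes, 2 were called above and 3 below 0, against 7.75% and 7.54% of all genes. Pfkp, the platelet-type phosphofructokinase, was 11.02, 11.04, 11.31, 10.90 and 11.24 in DN2-labelled leukemia, against 7.24 and 7.39 in healthy DN2. It was 10.04, 9.44, 9.78, 9.82 and 10.22 in GMP-labelled leukemia, against 9.84 and 9.95 in healthy GMP. Slc2a3, a glucose transporter, rose in both origins, by 1.19 ± 0.29 in the DN2 origin and 3.90 ± 0.29 in the GMP origin, with an interaction of -2.71 ± 0.40 (limma, adjusted p = 0.000515). With the mean of all probe sets the interaction was 2.33 for Pfkp and -1.78 for Slc2a3.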
